A study of Mus musculus with 18 samples.

Results

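The 9 genes described here encode G protein-coupled receptors with which the gut wall senses nutrients and the gut hormones that nutrients release. They are the long-chain fatty acid receptors Ffar1 and Ffar4, the lipid amide and monoacylglycerol receptor Gpr119, the short-chain fatty acid receptors Ffar2 and Ffar3, the calcium and amino acid sensor Casr, and the receptors Glp1r, Gipr and Glp2r for the hormones GLP-1, GIP and GLP-2. They were chosen by gene symbol, not by their values, although with earlier results of these data known. All 9 were found among the 55487 genes of the count files.

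Ileum RNA-seq came from 18 C57BL6/J mice on chow, with 6 libraries per genotype and 1 mouse per library. IEC-Ppara mice carried CAG-Ppara,-EGFP, a transgene at the Col1a1 safe harbor that Cre turns on, on 1 allele (heterozygous) or both (homozygous), together with Villin-CreERT2, whose Villin promoter drives the tamoxifen-dependent Cre in intestinal epithelium. Controls lacked Villin-CreERT2. All mice, controls included, received 3 daily tamoxifen injections of 100 mg/kg at 8 to 13 weeks of age, and tissue was taken 2 weeks after the last one. Controls were 3 females and 3 males, and each IEC-Ppara group was 2 females and 4 males. Because the controls lacked Cre, effects of the recombinase and of the transgene cannot be told apart in the comparisons with control.

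Library depth, as the sum of all gene counts, ran from 38528522 to 50376371. Transcripts of Ppara, which include those of the transgene, ran from 25.8 to 47.4 CPM (counts per 1000000 counts of the library) in controls, from 107 to 196 CPM in heterozygous and from 184 to 279 CPM in homozygous IEC-Ppara mice, so both IEC-Ppara groups lay above all controls and overlapped with each other. Markers of the distal small intestine were abundant in every library, with the bile acid transporter gene Slc10a2 between 355 and 680 CPM, while the colonic Hoxb13 did not exceed 0.126 CPM. Markers of other cell types differed between libraries. The mean log2 CPM of 12 B-cell genes was between 2.85 and 5.42 in 4 libraries (control 2, control 3, heterozygous 2 and homozygous 1) and at most 0.82 in the other 14. For 10 genes of smooth muscle the same mean was 4.83 in control 6, 5.14 in heterozygous 3, and between 7.02 and 8.86 elsewhere. For 12 genes of T cells and intraepithelial lymphocytes it was 1.96 to 3.21 in controls, 1.57 to 2.68 in heterozygous and 1.71 to 2.40 in homozygous libraries. Of the 10 of these genes tested, 0 passed the adjusted edgeR test described below. All 10 had an unadjusted p under 0.05 in homozygous against control mice (median log2 fold change -0.87), and 8 of 10 without the 4 B-cell-rich libraries (median -0.65). In heterozygous against control mice 7 of 10 had one (median -0.68). Of all genes tested over the 18 libraries, 8.31% and 4.92% had such a p in these 2 comparisons. Of the 12 B-cell genes 0 passed the adjusted test, and 11 had an unadjusted p under 0.05 in homozygous against control mice (median -2.77, and -0.29 with 3 of 12 without the 4 B-cell-rich libraries), as had 0 in heterozygous against control mice (median -1.36). In whole-thickness tissue of this kind, fewer cells of a type and less RNA per cell cannot be told apart.

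The receptors signal through G proteins. FFAR1 and FFAR4 respond to long-chain fatty acids and GPR119 to oleoylethanolamide and 2-monoacylglycerols, and in the gut these sensors are best known from enteroendocrine cells, where their activation releases GLP-1, GIP and CCK. FFAR2 and FFAR3 respond to acetate, propionate and butyrate made by gut bacteria, and CASR responds to calcium and aromatic amino acids. The class B receptors GLP1R, GIPR and GLP2R bind the peptide hormones of the L and K cells and raise cyclic AMP, and in the gut GLP-2 receptors are known from subepithelial and neural cells rather than from most of the epithelium.

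Levels were compared between genes as TPM (counts divided by gene length and scaled to a fixed total per library). Ffar4 was the most abundant receptor, at 15.4 ± 3.52 TPM (SD, n = 18), followed by Glp2r at 8.82 ± 1.14 TPM and Ffar2 at 5.63 ± 1.18 TPM. Ffar1 at 2.91 ± 1.82 TPM and Ffar3 at 2.81 ± 0.738 TPM came next and were not ordered alike in all mice, since Ffar1 was above Ffar3 in 6 of 18 libraries. Gipr averaged 1.06 ± 0.222 TPM, Glp1r 0.709 ± 0.205 TPM, Gpr119 0.478 ± 0.198 TPM and Casr 0.188 ± 0.0966 TPM. Among neighbours in this order, only Ffar3 and Gipr had ranges that did not overlap, at 2.05 to 4.37 TPM and 0.618 to 1.56 TPM. Ffar4 nonetheless exceeded Glp2r within each of the 18 libraries. The sensors of one ligand class thus differed in level, with the mean of Ffar4 above that of Ffar1 and the mean of Ffar2 above that of Ffar3.

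**Figure D1:**
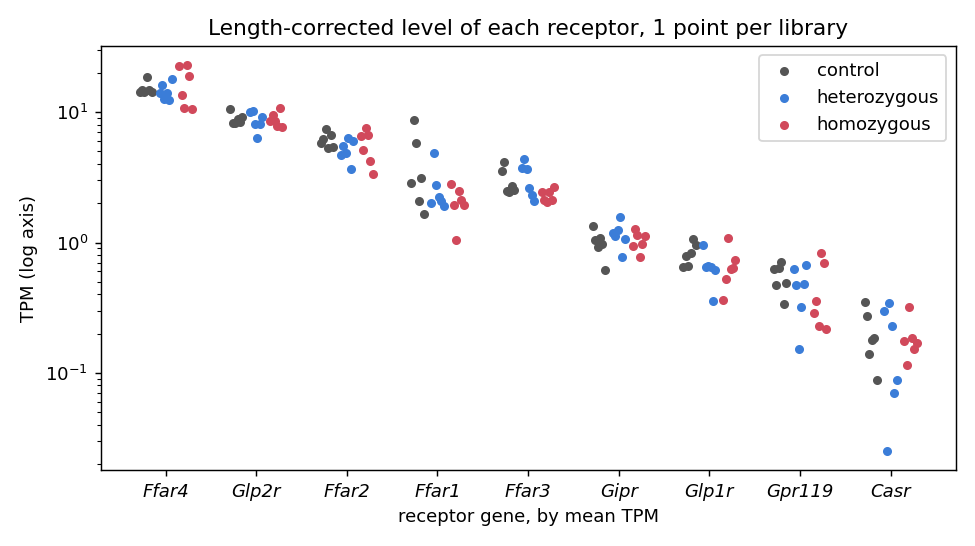
TPM of each receptor gene on a log axis, with 1 point per library coloured by genotype and genes ordered by their mean over 18 libraries. Ffar4 averaged 15.4 TPM and Casr 0.188 TPM, and the ranges of the 3 genotypes overlapped for each gene. For Ffar3 the overlap of homozygous libraries (2.05 to 2.69 TPM) with controls (2.46 to 4.15 TPM) was narrow.

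The study's design asks whether epithelial Ppara overexpression changes ileal transcripts, and for none of the 9 receptors did the difference between genotypes pass the test. In edgeR's quasi-likelihood test on counts, 0 of 9 receptors had a Benjamini-Hochberg adjusted p under 0.05 for homozygous against control, where 0.341% of the 16106 protein-coding genes tested did. The count was 0 of 9 for heterozygous against control, where 0.267% of genes passed, and 0 of 9 for homozygous against heterozygous, where 0% of genes passed. limma-voom also called 0 receptors in these 3 comparisons, and DESeq2 called 0 of 9 in each of the comparisons with control. For homozygous against heterozygous, DESeq2 gave an adjusted p to 1 receptor (Glp2r), which did not pass, and none to the other 8. At an unadjusted p under 0.05, 1 receptor (Ffar1) was below control in homozygous mice, beside 8.31% of all genes in either direction, 0 receptors differed in heterozygous mice, beside 4.92%, and 1 receptor (Ffar3) differed between the IEC-Ppara groups, beside 7.53%. The CPM ranges of the groups overlapped for all 9 receptors in all 3 comparisons, while 0.708%, 0.422% and 0.317% of genes had ranges that did not overlap. The median log2 fold change of the 9 receptors in homozygous against control mice was -0.18, with 7 of 9 below 0, and that of all genes tested was 0.01.

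**Figure D2:**
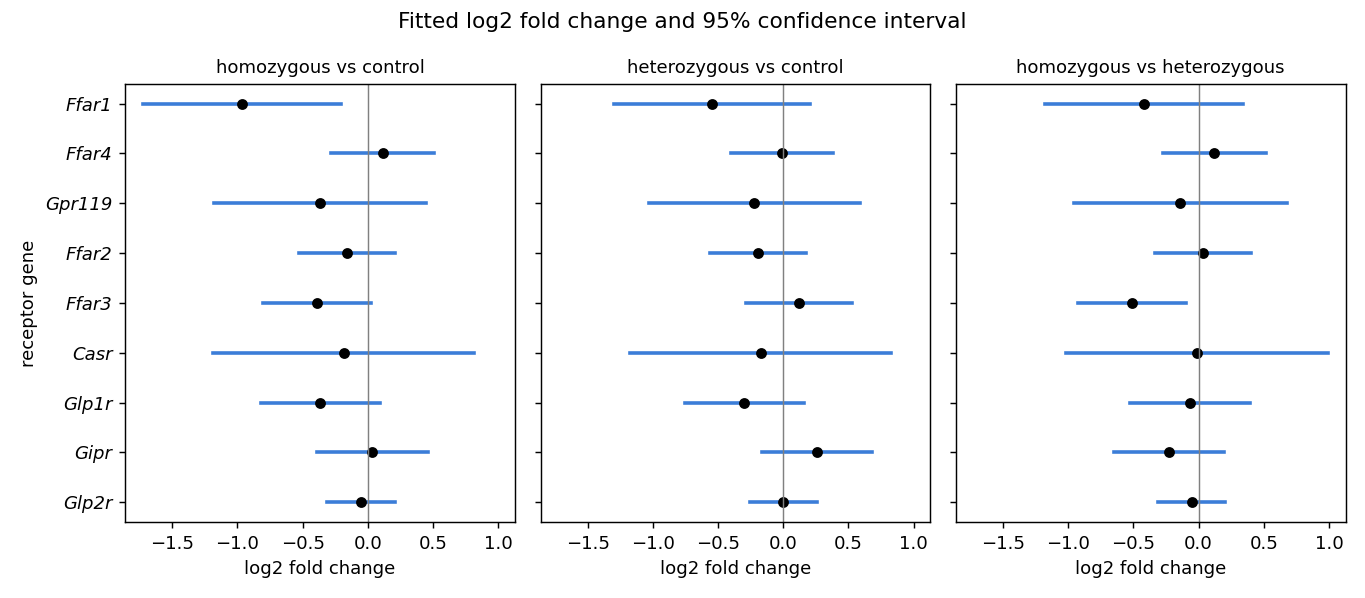
Fitted log2 fold change (point) and 95% confidence interval (line) of each receptor gene in the 3 genotype comparisons, with 6 libraries per group. The unadjusted interval left out 0 only for Ffar1 in homozygous against control and for Ffar3 in homozygous against heterozygous mice, and the widest intervals belonged to Casr and Gpr119.

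Ffar1 (ENSMUSG00000044453), the classical receptor through which long-chain fatty acids act on enteroendocrine and islet cells, varied more between libraries than between genotypes. Its CPM in control 1 to control 6 were 4.71, 13.3, 8.95, 3.24, 4.66 and 2.52. In heterozygous 1 to heterozygous 6 they were 3.02, 7.82, 4.18, 3.66, 3.31 and 2.90, and in homozygous 1 to homozygous 6 they were 4.65, 3.02, 1.52, 3.73, 3.12 and 2.81. In each genotype the highest libraries were those rich in B-cell transcripts, and the 3 groups overlapped with and without them. Over all 18 libraries the log2 fold change for homozygous against control was -0.96 (standard error 0.36, 95% confidence interval -1.72 to -0.20, edgeR unadjusted p = 0.0157, adjusted p = 0.490). Without the 4 B-cell-rich libraries it was -0.41 (standard error 0.25, edgeR adjusted p = 0.879), and with the B-cell score as a covariate it was -0.38 (standard error 0.22, edgeR adjusted p = 0.831), and over all alternatives the adjusted p ran from 0.240 to 0.879. In those 4 libraries Ffar1 ranged from 4.65 to 13.3 CPM, and in the other 14 from 1.52 to 4.71 CPM.

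The gene lies on chromosome 7 at 30857390 to 30861564 on the minus strand (GRCm38), with 1 exon of 4175 bases in the GENCODE annotation. The next gene upstream on the same strand is Cd22, which encodes a B-cell surface lectin and spans 30865402 to 30880342, so that its transcribed end lies 3838 bases before the start of Ffar1, without shared exonic sequence. Gene counts do not show whether reads on the single exon of Ffar1 in B-cell-rich libraries came from its own transcript or from RNA that runs on from Cd22, so each Ffar1 value is a count on the gene's interval. Read coverage between the genes was not analysed here. Cd22 ranged from 13.9 to 82.4 CPM in the 4 B-cell-rich libraries and from 3.08 to 5.87 CPM in the other 14. The 12 genes of the B-cell list were all detected, and the ranges of their mean log2 CPM were 0.31 to 5.42 in controls, 0.03 to 4.59 in heterozygous and -0.13 to 2.85 in homozygous mice, and the part of B cells in the Ffar1 counts was not tested beyond these fits. The libraries fall into separate clusters by B-cell score, so the correlation of Ffar1 with this score is given only within the 14 others. Pearson's r was -0.02 there (permutation p = 0.947, Benjamini-Hochberg adjusted p over 117 pairs of receptor and cell type score = 0.972). With the T-cell score, Ffar1 had r = 0.59 (permutation p = 0.00831, adjusted p = 0.399) and rho = 0.47 (permutation p = 0.0474, adjusted p = 0.383) over 18 libraries, r = 0.64 without the 2 libraries farthest from the median score, and r = 0.21 without the 4 B-cell-rich libraries. Within controls, heterozygous and homozygous libraries this r was 0.47, 0.58 and 0.19. Over all 117 pairs of receptor and score, 12 had an unadjusted p under 0.05 for r and 1 (Ffar1 with B cells) an adjusted one. For rho, 14 had an unadjusted p under 0.05 and 0 an adjusted one. Of the 12 pairs for r, those not described elsewhere each had an adjusted p of 0.435. They were Ffar1 and Ffar3 with tuft cells (r = 0.49 and 0.48) and Ffar3 and Glp2r with neutrophils (-0.52 each). The others were Ffar2 with macrophages and dendritic cells (0.49), and Ffar2 and Ffar3 with B cells. Among 13850 protein-coding genes with a mean of at least 1 CPM, the genes most like Ffar1 after subtracting genotype means were Ly6d, Fcamr and Zc3h12d, with r of 0.91, 0.87 and 0.87 over 18 libraries. Without the 4 B-cell-rich libraries these r were 0.68, 0.43 and 0.80, and that of Cd22 went from 0.83 to -0.23. Here and for the other receptors, the 3 genes named as most like a receptor had the highest r among these 13850 genes. Those highest r were not tested, and choosing the highest of so many raises them.

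**Figure D3:**
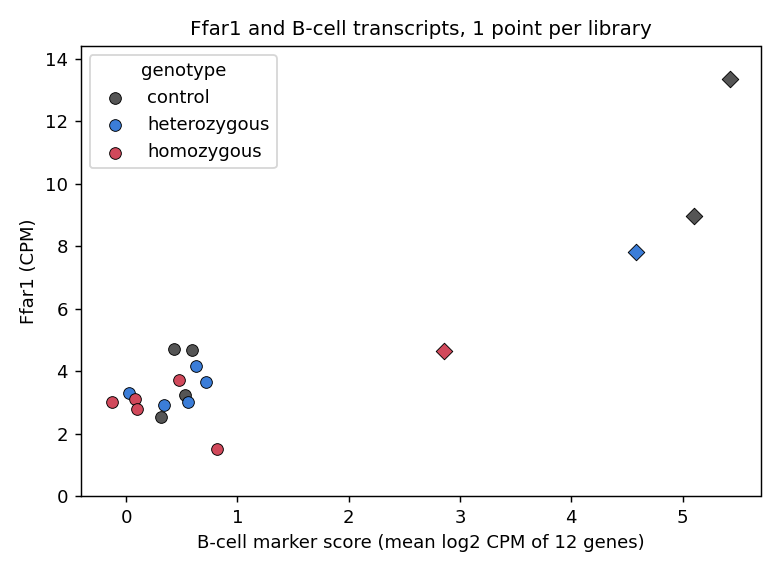
Ffar1 CPM against the B-cell marker score of each library, the mean log2 CPM of 12 genes, coloured by genotype, with diamonds for the 4 libraries rich in B-cell transcripts. Those 4 reached 4.65 to 13.3 CPM, and the 14 other libraries stayed between 1.52 and 4.71 CPM (r = -0.02 against the score).

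Ffar4 (ENSMUSG00000054200), the other long-chain fatty acid receptor, known also as GPR120, was at 7.89 ± 0.889 CPM in controls, 7.61 ± 1.11 CPM in heterozygous and 8.46 ± 3.13 CPM in homozygous mice (SD, n = 6 each). The homozygous libraries spread further to both sides than the controls, with values of 12.5, 7.09, 5.25, 11.5, 9.32 and 5.14 CPM against 7.95, 7.64, 7.44, 9.63, 7.45 and 7.21 CPM in controls. No test of spread was made. The log2 fold change was 0.11 (95% confidence interval -0.28 to 0.51, edgeR adjusted p = 0.929) in homozygous and -0.01 (-0.40 to 0.39, edgeR adjusted p = 1.00) in heterozygous mice against controls. The gene most like it over the 18 libraries was Elf3, an epithelial transcription factor gene, with r of 0.86 after subtracting genotype means, followed by Mon1a and Trmt12 with r of 0.78 each. With the score of enteroendocrine cells Ffar4 had r = 0.52 (permutation p = 0.0277, adjusted p = 0.435) and rho = 0.60 (permutation p = 0.00916, adjusted p = 0.369) over 18 libraries. This r was 0.52 when the 2 libraries farthest from the median score were left out, and 0.65, 0.79 and 0.66 within controls, heterozygous and homozygous libraries. It had the same sign in each genotype but did not pass the adjustment.

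Gpr119 (ENSMUSG00000051209), whose lipid ligands arise during fat digestion, was counted only 6 to 30 times per library. Its level was 0.462 ± 0.124 CPM in controls, 0.383 ± 0.157 CPM in heterozygous and 0.357 ± 0.208 CPM in homozygous mice (SD, n = 6 each). The log2 fold change for homozygous against control was -0.36 with a 95% confidence interval of -1.18 to 0.45 (edgeR adjusted p = 0.853), so a fall to 0.442 times or a rise to 1.36 times the control level both lay inside the interval at this depth. Pgs1, Nrn1 and Defa29 were most like it among the 13850 genes, with r of 0.76, 0.76 and 0.73 that were not tested.

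**Figure D4:**
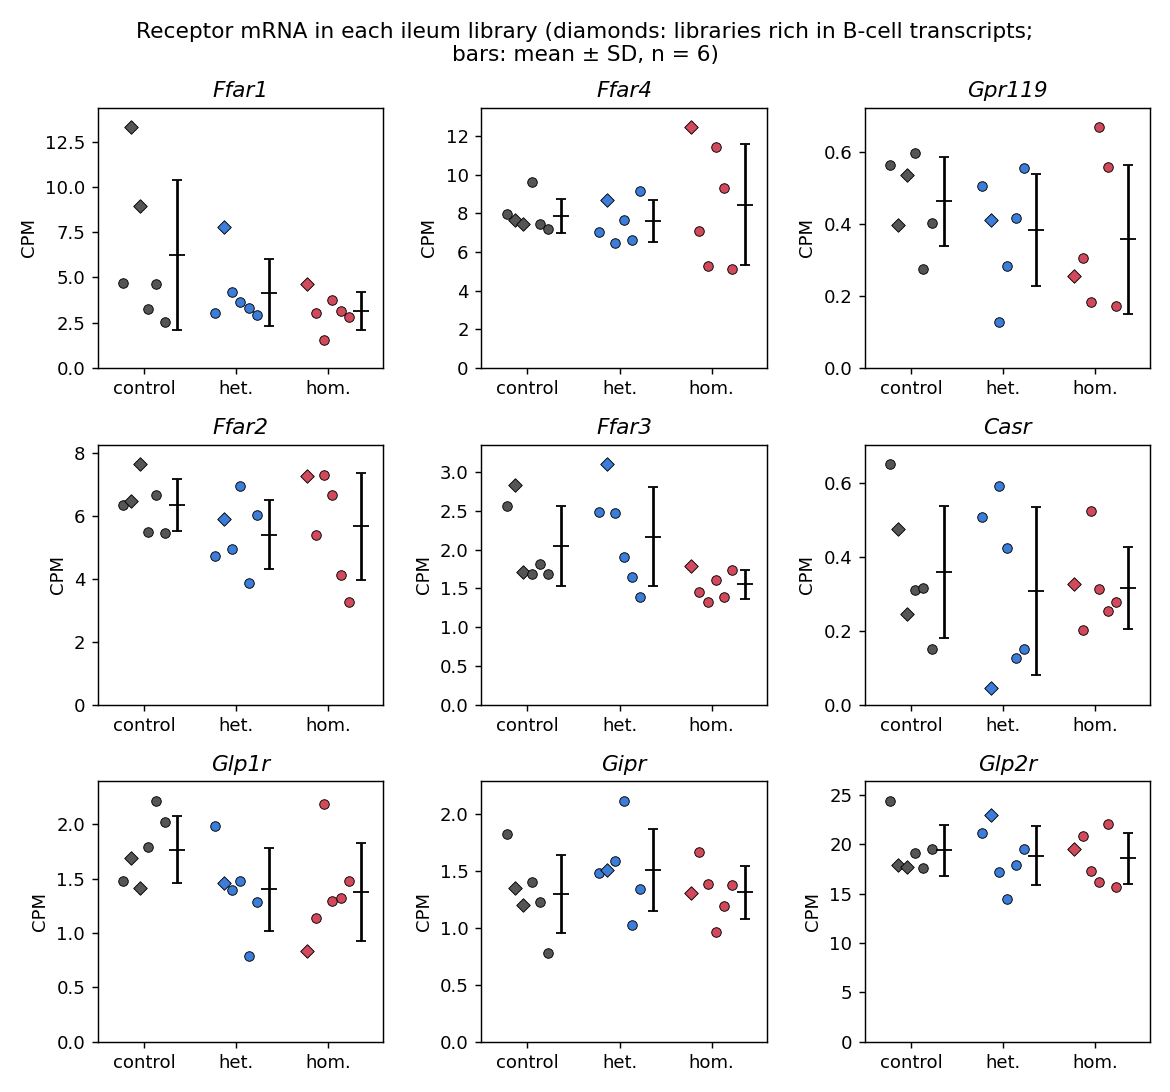
CPM of each receptor gene in each of the 18 libraries by genotype, with linear axes from 0, bars for mean ± SD of 6 libraries and diamonds for the 4 libraries rich in B-cell transcripts. The genotype groups overlapped for each of the 9 genes, and Ffar1 was the only one with all 4 diamonds at the top of their groups.

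The short-chain fatty acid receptors Ffar2 and Ffar3 are neighbours of Ffar1 on chromosome 7 and are likewise transcribed from the minus strand, Ffar3 (ENSMUSG00000019429) at 30854330 to 30856178 and Ffar2 (ENSMUSG00000051314) at 30818348 to 30823775 (GRCm38). The gap between Ffar1 and Ffar3 is 1212 bases and that between Ffar3 and Ffar2 is 30555 bases, and no exonic sequence is shared. Ffar2, which is expressed by enteroendocrine cells and by leukocytes, was at 6.35 ± 0.822 CPM in controls, 5.41 ± 1.10 CPM in heterozygous and 5.67 ± 1.69 CPM in homozygous mice (SD, n = 6 each). Its log2 fold changes against control were -0.16 (95% confidence interval -0.53 to 0.21) in homozygous and -0.20 (-0.56 to 0.17) in heterozygous mice, with edgeR adjusted p of 0.857 and 1.00. Within the 14 libraries that were not rich in B-cell transcripts, r with the B-cell score was 0.66 for Ffar2, 0.69 for Casr and 0.65 for Glp1r (permutation p = 0.0104, 0.00732 and 0.0105, each with an adjusted p of 0.307). In these libraries r was also -0.68 for Casr with the enterocyte score (permutation p = 0.007, adjusted p = 0.307). Ffar2 had r = 0.61 with macrophages and dendritic cells there (permutation p = 0.0212, adjusted p = 0.495). Of the 117 pairs, 10 had an unadjusted p under 0.05 in these 14 libraries and 0 an adjusted one. Mri1, Adora2a and Wdr45 were most like Ffar2, with r of 0.83, 0.82 and 0.81.

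Ffar3 was at 2.56, 2.84, 1.71, 1.69, 1.81 and 1.69 CPM in control 1 to control 6. In heterozygous 1 to heterozygous 6 it was at 2.49, 3.11, 2.47, 1.90, 1.65 and 1.39 CPM. In homozygous 1 to homozygous 6 it was at 1.79, 1.46, 1.32, 1.61, 1.39 and 1.74 CPM. In 4 of 6 homozygous libraries Ffar3 was below the lowest control, and in 1 it was below the lowest heterozygous library, while the others overlapped with both groups. The log2 fold change for homozygous against heterozygous was -0.51 (standard error 0.20, 95% confidence interval -0.92 to -0.10, edgeR unadjusted p = 0.0181, adjusted p = 0.656), and that against control was -0.39 (standard error 0.20, 95% confidence interval -0.80 to 0.02, edgeR adjusted p = 0.627). Heterozygous and control mice differed by 0.12 (95% confidence interval -0.29 to 0.53, edgeR adjusted p = 1.00). Without the 4 B-cell-rich libraries the values were -0.45 against heterozygous and -0.37 against control, so Ffar3 moved less than Ffar1 on leaving those libraries out. Tmem267, Zup1 and Ccdc28a were most like it, with r of 0.86, 0.85 and 0.82.

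Casr (ENSMUSG00000051980) had the fewest counts, 2 to 30 per library. It was at 0.359 ± 0.179 CPM in controls, 0.307 ± 0.228 CPM in heterozygous and 0.316 ± 0.111 CPM in homozygous mice (SD, n = 6 each). Its log2 fold change for homozygous against control was -0.18 with a 95% confidence interval of -1.19 to 0.82 (edgeR adjusted p = 0.956), which spans 0.440 to 1.76 times the control level. Zfp113, Tcf15 and Blcap were most like it among the 13850 genes, with r of 0.79, 0.74 and 0.73 that were not tested.

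The receptors of the incretins were low, and no difference between genotypes passed the test. Glp1r (ENSMUSG00000024027), the GLP-1 receptor, was at 1.77 ± 0.309 CPM in controls, 1.40 ± 0.383 CPM in heterozygous and 1.37 ± 0.452 CPM in homozygous mice (SD, n = 6 each). Its log2 fold changes against control were -0.36 (95% confidence interval -0.82 to 0.09, edgeR adjusted p = 0.689) in homozygous and -0.30 (-0.76 to 0.16, edgeR adjusted p = 1.00) in heterozygous mice. Its r with the T-cell score over 18 libraries was 0.48 (permutation p = 0.0423, adjusted p = 0.435) and rho was 0.50 (permutation p = 0.0364, adjusted p = 0.369), with r = 0.40 without the 2 libraries farthest from the median score and r = 0.57 without the 4 B-cell-rich libraries (permutation p = 0.0352, adjusted p = 0.505). Within controls, heterozygous and homozygous libraries r was 0.13, 0.71 and -0.37, so the relation did not hold in each genotype. With the enterocyte score r was -0.59 (permutation p = 0.0102, adjusted p = 0.399) and rho -0.54 (permutation p = 0.0228, adjusted p = 0.369). This r was -0.38 when the 2 libraries farthest from the median score were left out, -0.56 without the 4 B-cell-rich libraries, and -0.11, -0.75 and -0.84 within controls, heterozygous and homozygous libraries. Neither relation passed the adjustment, and the part of these cells in the Glp1r values was not tested. Plekhn1, Arhgap33 and Asph were most like it, with r of 0.92, 0.87 and 0.87.

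Gipr (ENSMUSG00000030406), the GIP receptor, was at 1.30 ± 0.339 CPM in controls, 1.51 ± 0.358 CPM in heterozygous and 1.31 ± 0.232 CPM in homozygous mice (SD, n = 6 each). The log2 fold change for homozygous against control was 0.03 (95% confidence interval -0.39 to 0.46, edgeR adjusted p = 0.985) and that for heterozygous against control was 0.26 (-0.16 to 0.68, edgeR adjusted p = 1.00). Nudt16l1, Zfp560 and Eny2 were most like it, with r of 0.82, 0.79 and 0.77.

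The transcript of its ligand showed another pattern in the same libraries. Gip, the hormone gene of the K cells, was at 6.97, 5.46, 5.61, 6.23, 1.20 and 4.59 CPM in control 1 to control 6 and at 3.72, 0.223, 0.296, 0.893, 0.709 and 0.171 CPM in homozygous 1 to homozygous 6. Heterozygous libraries ranged from 3.04 to 6.59 CPM, inside the control range, with a log2 fold change against control of -0.10 (edgeR adjusted p = 1.00). In 5 of 6 homozygous libraries it was below every control library, and homozygous 1 lay inside the control range. The log2 fold change was -2.31 (standard error 0.60, edgeR adjusted p = 0.160), and it was -3.45 without homozygous 1 (edgeR adjusted p = 0.00102) and -2.32 in DESeq2 (adjusted p = 0.0274). Homozygous 1 is also 1 of the 4 B-cell-rich libraries, without which the log2 fold change was -3.39 (edgeR adjusted p = 0.0126). Over all alternatives the adjusted p of Gip ran from 0.00102 to 0.353.

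Glp2r (ENSMUSG00000049928), the receptor of the intestinotrophic hormone GLP-2, was the receptor measured with the narrowest interval. It was at 24.4, 17.9, 17.8, 19.2, 17.6 and 19.5 CPM in control 1 to control 6 and at 21.1, 23.0, 17.2, 14.4, 17.9 and 19.5 CPM in heterozygous 1 to heterozygous 6. In homozygous 1 to homozygous 6 it was at 19.5, 20.9, 17.3, 16.2, 22.1 and 15.6 CPM. The 3 groups covered nearly the same range. The log2 fold change was -0.05 for homozygous against control (95% confidence interval -0.31 to 0.21, edgeR adjusted p = 0.951), which is 0.807 to 1.15 times the control level, and 0.00 for heterozygous against control (-0.26 to 0.26, edgeR adjusted p = 1.00). Glp2r overlaps Gas7 on the opposite strand, with 66 shared exonic bases (1.135% of its exonic length), and the counting is not stated to use strand.

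Glp2r was higher in female than in male libraries by DESeq2, although not by edgeR after adjustment. This comparison was made after the values had been seen. The 7 female libraries had 19.2 to 24.4 CPM with a median of 21.1 CPM, and the 11 male libraries had 14.4 to 19.5 CPM with a median of 17.6 CPM. Female means were above male means in each genotype, at 21.0 against 17.7 CPM in controls, 22.1 against 17.3 CPM in heterozygous and 21.5 against 17.2 CPM in homozygous mice. With genotype as a covariate the log2 difference, female minus male, was 0.32 (standard error 0.07, 95% confidence interval 0.16 to 0.47, edgeR unadjusted p = 0.000484, adjusted p = 0.510), and DESeq2 gave 0.32 with an adjusted p of 0.0481, the lowest of a range up to 1.00 over the alternatives. Over 16106 genes 0.0497% passed in edgeR and 3.55% had an unadjusted p under 0.05, and 0 of 9 receptors passed in edgeR. The CPM ranges of the sexes overlapped for all 9 receptors and stayed apart for 0.0559% of genes. The other 8 receptors had log2 differences between -0.27 and 0.41, each with an edgeR adjusted p of 0.997. Several cell type lists also lay on 1 side of 0. Of Paneth cell genes 8 of 8 were above 0 in female against male (median 0.21, 5 with an edgeR unadjusted p under 0.05). Goblet cells were at 8 of 8 (median 0.16) and T cells at 10 of 10 (0.24). Smooth muscle was at 0 of 10 (-0.19), enteric glia at 0 of 8 (-0.15), macrophages and dendritic cells at 0 of 12 (-0.20) and B cells at 0 of 12 (-0.61). Of these genes 0 passed. The part of these cells in the Glp2r values was not tested. The gene most like Glp2r by the same rule as above was Kdm6a (r = 0.80), an X-linked gene that escapes X inactivation, followed by Cep290 (r = 0.79) and Cars (r = 0.78). Sex was not subtracted in this rule. Kdm6a ranged from 43.3 to 60.0 CPM in female and from 20.4 to 33.1 CPM in male libraries. Its r with Glp2r therefore contains the difference between the sexes and is no separate evidence for it.

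**Figure D5:**
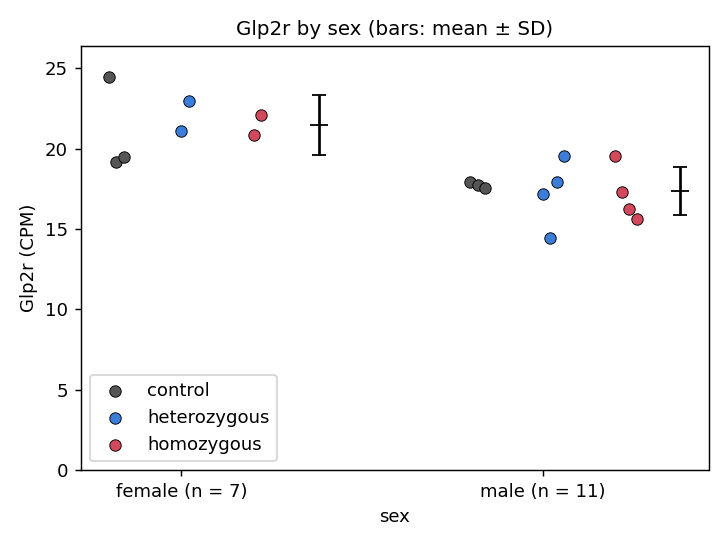
Glp2r CPM by sex, coloured by genotype, with bars for mean ± SD of 7 female and 11 male libraries on a linear axis from 0. Female libraries ranged from 19.2 to 24.4 CPM and male libraries from 14.4 to 19.5 CPM, and the ranges overlapped.

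Other genes of the same sensing pathway were read from 4 lists, and 0 genes of any list passed the edgeR test in any of the 3 genotype comparisons. Of 21 other nutrient and metabolite sensors 18 were tested, with a median log2 fold change of 0.02 in homozygous against control mice beside 0.01 for all genes. The 3 with the lowest p were Gpr55, a lysophosphatidylinositol receptor gene (log2 fold change -0.49, edgeR adjusted p = 0.188), the endocannabinoid receptor gene Cnr1 (0.87, adjusted p = 0.634) and the short-chain fatty acid sensor gene Olfr78 (0.48, adjusted p = 0.718). Control ileum held 10.1 ± 1.13 CPM of Gpr55 and homozygous ileum 7.11 ± 1.39 CPM (SD, n = 6 each), and the gene passed in DESeq2 (adjusted p = 0.0308) and in edgeR without homozygous 1 (adjusted p = 0.0211), with adjusted p of up to 0.406 under the other alternatives.

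Of 23 other gut hormone receptors 19 were tested, with a median of 0.26, and 16 of 19 were above 0. Sstr3, a somatostatin receptor gene (-0.60, edgeR adjusted p = 0.471), the galanin receptor gene Galr1 (0.68, adjusted p = 0.541) and the pancreatic polypeptide receptor gene Npy4r (1.33, adjusted p = 0.582) had the lowest p. Several receptors of this list are known from enteric neurons, and all 12 enteric neuron markers were above 0 in the same comparison with a median of 0.59, of which 1 passed the adjusted test. This was Ret, the receptor tyrosine kinase gene of enteric neurons, whose level was 31.5 ± 5.85 CPM in homozygous mice against 17.0 ± 3.52 CPM in controls (SD, n = 6 each, log2 fold change 0.90, SE 0.12, edgeR adjusted p = 0.000354). Heterozygous mice had 21.95 ± 2.41 CPM of Ret (log2 fold change against control 0.42, SE 0.12, edgeR adjusted p = 0.296). The neuron markers had a median of -0.001 there, with 6 of 12 above 0, so Ret did not follow its list in that comparison. In homozygous against control mice, markers of the other cells of the gut wall lay the same way as the neuron markers. Smooth muscle was at 10 of 10 above 0 (median 0.57), fibroblasts at 10 of 10 (median 0.35) and enteric glia at 6 of 8 (median 0.31), and 0 of them passed. The neuron score was 0.05 in control 6, which was also poor in smooth muscle, 1.99 to 2.79 in the other 5 controls and 2.38 to 3.58 in homozygous libraries. Without control 6 the median of the receptor list was 0.19 with 15 of 19 above 0, and those of neurons, smooth muscle, fibroblasts and glia were 0.37, 0.35, 0.23 and 0.19. The part of these cells in the receptor list's median was not tested.

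Of 16 ligand and hormone processing genes all were tested, with a median of -0.14 in homozygous against control mice. Beside Gip, the lowest p belonged to Ghrl, the ghrelin gene (-0.95, edgeR adjusted p = 0.107), and Cck, the cholecystokinin gene (-0.49, edgeR adjusted p = 0.550). Control ileum held 1.52 ± 0.351 CPM of Ghrl and homozygous ileum 0.779 ± 0.246 CPM (SD, n = 6 each), and the gene passed in DESeq2 (adjusted p = 0.0169) and in edgeR without homozygous 1 (adjusted p = 0.0189), with adjusted p of up to 0.250 under the other alternatives. Gcg encodes the precursor of the ligands of Glp1r and Glp2r. It ranged from 42.6 to 64.5 CPM in controls, from 41.4 to 56.4 CPM in heterozygous and from 51.0 to 75.2 CPM in homozygous mice. Of 30 signal transduction genes downstream of the receptors, all 30 were tested with a median of 0.01. Plcb2, a phospholipase C gene (-0.41, edgeR adjusted p = 0.456), and the G protein alpha subunit genes Gnao1 (0.34, adjusted p = 0.601) and Gnai1 (0.46, adjusted p = 0.652) had the lowest p.

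PPARα binds DNA as a heterodimer with RXR at direct repeats of AGGTCA, so the RefSeq promoter windows of the receptors (GRCm38.p6, 250 bases before to 50 after a start site) were searched for these letters on both strands. Windows were given for 8 of the 9 receptors, 11 windows in all. AGGTCA occurred in 3 of these windows, all of them of Ffar2, and in 16.3% of the 32851 promoter windows of all genes, while the spaced repeat AGGTCANAGGTCA occurred in 0 of the 11 and in 0.0396% of all. The matches of Ffar2 are shown because they are the only ones among the receptors. They read along the gene's own strand, 5′ to 3′, with the match in capitals as its reverse complement, the upper at chr7:30823933-30823962 and the lower, which 2 overlapping windows share, at chr7:30821264-30821293.
Ffar2 upper: ggtgaggctgccTGACCTgcctcacagcca
Ffar2 lower: ctgctcagttacTGACCTgcctctttctct
Relative to the start site the first base of the match is at -175 in the upper window and at -89 or -142 in the windows of the lower one. A match of this kind is a description of letters. Ffar2 itself had a log2 fold change of -0.16 in homozygous against control mice (edgeR adjusted p = 0.857).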

How the data were processed

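Whole-thickness ileum of 18 mice was profiled by poly-A RNA-seq, 6 libraries per genotype. The authors used STAR for alignment to GRCm38, with Ensembl genes, and deposited counts of uniquely aligned, unambiguous reads per gene from featureCounts, without normalization. CPM deposited by the authors were used only to find the genes by symbol. FPKM and moderated log2 CPM values deposited by the authors were not used in any result. CPM and TPM were computed from the counts. Protein-coding genes with a mean of at least 5 counts per library (16106) were compared with edgeR 4.0.16 in R 4.3.3 (quasi-likelihood test, TMM, 1 coefficient per genotype, 18 libraries in 1 fit), two-sided, with Benjamini-Hochberg adjustment over all genes at 0.05, and all 9 receptors passed this filter, so no separate permutation test was needed. The study's own filter (CPM above 3 in at least 4 libraries) would keep only 4 of the 9. The script was tested on simulated data. Alternatives were DESeq2 1.42.0, limma-voom (limma 3.58.1), other scalings and filters, covariates for sex and smooth muscle score, a replicate block, and leaving out libraries. The B-cell score covariate, the fit without the 2 libraries poor in smooth muscle and the comparison of the sexes were added after the data were seen. A prior count of 2 entered the log2 CPM behind marker scores and likeness, and correlations had 100000 permutations. Named genes are the 9 receptors, list genes that passed or, per list, the 3 with the lowest p in homozygous against control mice, the 3 genes most like each receptor, neighbouring genes, and Ppara. Slc10a2 and Hoxb13 are named as tissue markers, and Gip values per library, Gcg and Ret were added after their values were seen. The receptors and lists were chosen with earlier results of these data known. Positions and exons came from GENCODE vM21, promoters from RefSeq. Counting error is set by 38528522 to 50376371 counts per library.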

Additional observations from a re-analysis of the deposited data

Results flagged for a closer look

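Of 27 sets of 6 libraries (9 receptors in 3 genotypes), 3 held a library set apart from the others by Dixon's criterion, of which chance flags about 1 in 20 sets. Ffar1 was at 7.82 CPM in heterozygous 2, the highest of its group and 1 of the 4 libraries rich in B-cell transcripts. Ffar4 was at 9.63 CPM in control 4, the highest control. Glp2r was at 24.4 CPM in control 1, a female and the highest control.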

How the results depend on the processing

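Wherever a receptor had an adjusted p in a genotype comparison, it did not pass, over 32 alternatives with a lowest adjusted p of 0.24. The study's filter tested only 4 of the 9 receptors, and DESeq2 gave 8 of 9 no adjusted p for homozygous against heterozygous. In homozygous mice 55 genes were called against control, in heterozygous mice 43, and between the IEC-Ppara groups 0. DESeq2 called 140, 77 and 18. Without the 4 B-cell-rich libraries 30 and 16 were called in the first 2 comparisons. Heterozygous against control gave 25 with only the 12 libraries compared and 23 without the 2 libraries poor in smooth muscle, and homozygous against heterozygous gave 1 with the study's filter and 1 with library size only. Leaving out 1 library gave 46 to 64, 28 to 53 (28 without control 5 or heterozygous 6) and 0 to 2. At an unadjusted p under 0.05 edgeR had 1213 genes for homozygous against heterozygous. Female against male called 8 genes, 17 with all biotypes, 19 in DESeq2, and 8 to 9 with 1 library left out, and DESeq2 called 1 receptor, Glp2r. The single receptor and score pair (Ffar1 with B cells) at an adjusted p under 0.05 for r among 117 fell to 0 without the 4 B-cell-rich libraries. For rho over 18 libraries 0 pairs passed. The cause of these differences was not tested.

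Small log2 fold changes changed sign. Without the 4 B-cell-rich libraries Ffar4 was -0.076 (homozygous against control), Casr 0.042 (heterozygous against control), and Ffar2 -0.038 and Glp1r 0.042 (homozygous against heterozygous). With the smooth muscle score, Gipr was -0.031 (homozygous against control) and Ffar2 -0.033 (homozygous against heterozygous). Without the 2 libraries poor in smooth muscle, Gipr was -0.061 (homozygous against control), Ffar4 0.030 and Glp2r 0.048 (heterozygous against control) and Casr 0.28 (homozygous against heterozygous). For heterozygous against control, Ffar4 was 0.014 with the B-cell score and 0.0029 with sex, and Glp2r 0.0037 in limma-voom and 0.052 with sex. For homozygous against heterozygous, Casr was 0.032 with library size only and 0.37 in limma-voom. For female against male, Casr was 0.050 without the 2 libraries poor in smooth muscle and 0.042 without the 4 B-cell-rich libraries, where Glp1r was -0.0044. With 1 library left out, the ranges were as follows. For homozygous against control, Casr ran from -0.37 to 0.081, Ffar4 from -0.035 to 0.22, Gipr from -0.061 to 0.17 and Glp2r from -0.11 to 0.029. For heterozygous against control, Casr ran from -0.46 to 0.094, Ffar4 from -0.061 to 0.038 and Glp2r from -0.047 to 0.082. For homozygous against heterozygous, Casr ran from -0.24 to 0.28, Ffar2 from -0.056 to 0.14, Ffar4 from -0.027 to 0.23 and Glp1r from -0.22 to 0.067. For female against male, Casr ran from -0.54 to 0.026 and Glp1r from -0.017 to 0.18.

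Replicate numbers were not taken as pairs, since the labels do not say what they share and not every pair correlated. Correlations of same-numbered libraries ran from -0.45 to 0.48, with 7 of 18 pairs above 0.1 and 2 of 18 libraries most like their own number. With the replicate block, 23 genes were called for heterozygous against control and Casr was 0.17 for homozygous against heterozygous. The planned permutation tests and their alternatives were not run because each receptor entered the fit. At 2 to 30 counts per library, the 95% confidence interval of Casr in homozygous mice spanned 0.440 to 1.76 times the control level.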
